A study of Homo sapiens with 3 samples.

Results

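The lysosome is the acidic organelle in which cells break down proteins, glycans, lipids and whole organelles. Soluble hydrolases do the cutting, membrane proteins line the organelle and carry products and ions across it, and the vacuolar proton pump (V-ATPase) keeps the lumen acidic. The V-ATPase has a membrane-embedded V0 sector, which conducts protons, and a cytosolic V1 sector, which hydrolyses ATP. Many of these genes are switched on together by the transcription factors TFEB and TFE3, which bind a promoter element known as CLEAR, and c-Myc has been described as acting on such genes in the opposite direction to TFEB.

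The 49 genes described here were fixed by name and are 7 lysosomal membrane proteins, 22 hydrolases, 3 soluble lumenal proteins that are not enzymes, 15 V-ATPase subunits and accessory proteins, and the transcription factors TFEB and TFE3. They were read from a table of 60930 gene entries by gene symbol, and each symbol was found once. The data were RNA-seq profiles of PC3 cells, an androgen-independent line of human prostate cancer cells. There was 1 library from stable PC3 cells with the control hairpin shCON and 1 from each line with a hairpin against USP16, a deubiquitinase (shUSP16#1 and shUSP16#2). The hairpins were carried by the pLKO.1 lentiviral vector under puromycin selection, and the comparison asks what lowering USP16 does to gene expression in these cells.

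Values are TPM, transcript abundances that divide reads by transcript length and scale each library to the same sum, so levels of different genes can be set side by side. A change is log2(TPM + 1) under a hairpin minus the same in shCON, a scale that understates changes of low genes. Each condition had 1 library, so no difference below has a replicate check, no test across samples exists, and the depth behind each value is unknown. In place of a test, a gene is said to have risen or fallen where it passed 1.5-fold on this scale in the same direction under both hairpins. Both comparisons use the same shCON library. Of the 49 genes, 47 averaged 1 TPM or more across the 3 libraries, as did 13664 entries in the whole table, and these are the genes tested.

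USP16 itself was at 19.9 TPM in shCON, at 3.50 under shUSP16#1 and at 1.08 under shUSP16#2. The epithelial keratins KRT8 and KRT18 were between 622 and 947 TPM in all libraries, and KLK3, which PC3 cells lack or express weakly, was listed at 0 in every library. Of 5 leukocyte and macrophage markers, 4 stayed under 1 TPM in every library, and the exception was CD68, itself a lysosomal protein, at 42.2, 34.2 and 31.7 TPM. Of 5 fibroblast markers, 4 also stayed under 1 TPM, and COL1A1 was at 4.19, 10.7 and 4.78 TPM. Fewer cells of a type and less RNA per cell cannot be told apart in such bulk samples. Over all tested genes the median change was -0.17 with the first hairpin and -0.37 with the second, and where a change is called relative to all tested genes the median of that hairpin was subtracted. Protein-coding genes held 93.1%, 95.1% and 88.2% of all TPM in shCON, shUSP16#1 and shUSP16#2.

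The promoters of these genes were examined for the sequences through which TFEB and c-Myc act. The E-box searched was CACGTG, a site that c-Myc binds with its partner MAX. The CLEAR element searched was the same E-box with GT before it and AC after it, so every CLEAR match is also an E-box match. Each reads the same on both strands. RefSeq promoter windows of 300 bases (250 before and 50 after a transcription start, GRCh38.p14) were at hand for 36 of the 49 genes. CACGTG lay in a window of 10 of the 36 genes (27.8%), against 8.77% of 27305 genes with such windows, and the CLEAR element in 3 of them (8.33%), against 0.421%. Among the 9522 tested genes with a window, the nearer comparison because nearly all members are expressed, the shares were 12.8% and 0.945%. The members were listed as lysosomal genes that TFEB and c-Myc regulate, so their higher shares reflect that choice and are no result of these data. The stretches below come from these 10 genes and are printed because they hold the matches, which are in capitals, with the strand of transcription read 5′ to 3′. A match is a string of letters and not evidence of binding.
MCOLN1, chr19:7522598-7522627, + strand: gggctaccggGTCACGTGACcgaggcacag
GAA, chr17:80101493-80101522, + strand: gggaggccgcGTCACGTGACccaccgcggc
GAA, chr17:80101538-80101567, + strand: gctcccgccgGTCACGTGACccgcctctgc
ATP6V1G1, chr9:114587699-114587728, + strand: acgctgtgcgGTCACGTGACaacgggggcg
CTSD, chr11:1763957-1763986, - strand: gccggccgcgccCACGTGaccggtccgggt
CD63, chr12:55729172-55729201, - strand: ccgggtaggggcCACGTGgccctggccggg
ATP6V0B, chr1:43974891-43974920, + strand: ccggcgtggggtCACGTGgtaccggcgcat
ATP6V0D1, chr16:67481199-67481228, - strand: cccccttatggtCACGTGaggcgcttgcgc
LAMP1, chr13:113297226-113297255, + strand: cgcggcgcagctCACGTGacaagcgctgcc
CTSA, chr20:45891298-45891327, + strand: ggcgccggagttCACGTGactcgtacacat
NEU1, chr6:31862930-31862959, - strand: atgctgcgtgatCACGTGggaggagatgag

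The window of LAMP1 held 6 matches to CACGTG, more than any other of the 10 genes, and those of MCOLN1, GAA, CTSA and ATP6V0B held 2 each. Of these 10 genes, CD63, CTSD, ATP6V0B, ATP6V0D1 and MCOLN1 were higher under both hairpins, LAMP1 and ATP6V1G1 were lower under both, and the others differed in direction between the hairpins. Their median changes were 0.15 under shUSP16#1 and 0.05 under shUSP16#2. The 25 tested members with a window and no CACGTG had medians of -0.07 and -0.45. Of these 25, 3 were higher (12%) and 14 lower (56%) under both, against 50% and 20% of the 10 with a match. Over all tested genes with a window, 21.8% of those with a match were higher and 63.4% lower under both. Without a match the shares were 23.9% and 60.3%. The members with a match also had transcripts richer in G and C, with a median GC content of 56.7% against 51.6%. The trend of change against GC content was then removed, a step that keeps the medians over all tested genes (-0.18 and -0.37). The medians became -0.07 and -0.30 for the genes with a match and -0.21 and -0.44 for those without. Of the 10 genes, 1 remained higher under both hairpins, as did 17% of all genes with a GC content. The count lower under both then became 6 of the 10 genes with a match (60%) and 17 of the 25 without (68%). Over all tested genes with a window these shares were 70.9% and 64.1%.

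Few of the 47 tested genes passed 1.5-fold under both hairpins. Of the 47, 10 (21.3%) were higher under both hairpins by any amount, against 24.5% of all tested genes, and 23 (48.9%) were lower under both, against 57.2%. The remaining 14 (29.8%) went in opposite directions under the hairpins, against 18.3% of all tested genes, and 0 of them did so by over 0.3 in each. At 1.5-fold under both hairpins 4 genes fell (8.51%), where 20.8% of all tested genes did, and TFEB alone rose (2.13%), where 4.05% did. The genes that fell were CTSC, NPC1, ATP6V1C1 and ATP6V1D. At 2-fold 0 members passed in either direction, where 4.6% of all tested genes were lower and 1.16% higher. Counted relative to all tested genes, CTSC fell and TFEB and CD63 rose, against 11.2% lower and 9.76% higher in the table. With the GC trend removed NPC1 fell and TFEB rose, against 12.3% and 2.39%, and with both steps TFEB rose and 0 members fell, against 6.4% higher and 4.38% lower. The median change of the 47 genes was -0.03 with the first hairpin and -0.34 with the second, and 0.14 and 0.03 relative to all tested genes. Their summed level was 5333 TPM in shCON, against 5356 under shUSP16#1 and 4918 under shUSP16#2, about 0.5% of each library.

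The hairpins differed in how many of these genes they lowered. Under shUSP16#1, 5 of the 47 genes were at least 1.5-fold lower (10.6%, against 23.2% of all tested genes), namely CTSB, CTSC, NPC1, ATP6V1C1 and ATP6V1D. Under shUSP16#2 there were 18 (38.3%, against 38.5%). Of the 47 genes, 34 were lower under shUSP16#2 than under shUSP16#1, as were 73.4% of all tested genes.

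**Figure D1:**
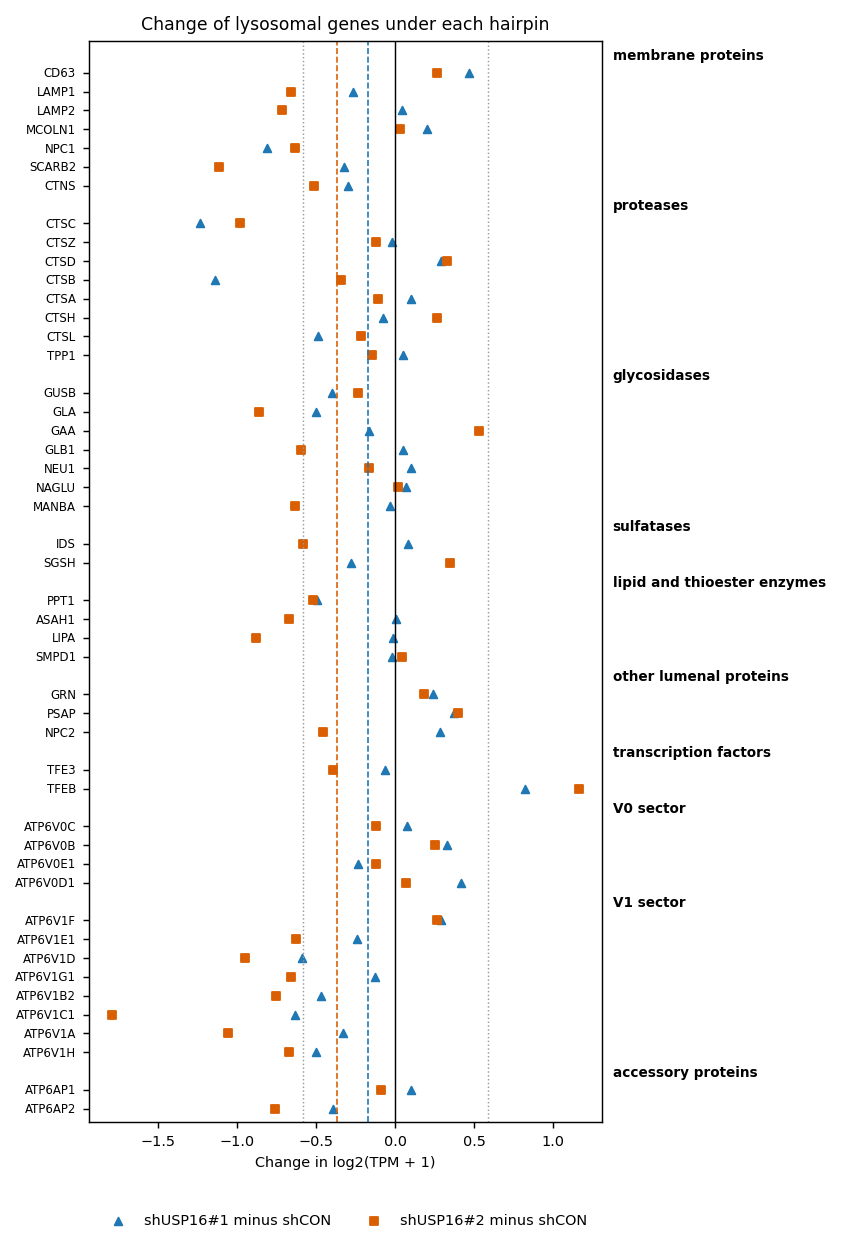
Change in log2(TPM + 1) from shCON for each of the 47 tested genes (rows, grouped by role), with triangles for shUSP16#1 and squares for shUSP16#2. Dashed lines mark the median of all tested genes under each hairpin (-0.17 and -0.37) and dotted lines mark 1.5-fold. TFEB is the one gene right of the upper dotted line under both hairpins, and 7 of the 8 V1 genes lie left of 0 under both.

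TFEB is the transcription factor that drives lysosome biogenesis when it enters the nucleus. It was at 1.25 TPM in shCON, at 2.98 under shUSP16#1 and at 4.04 under shUSP16#2, the lowest level of the 47 genes in shCON. Its TPM was 2.38 and 3.23 times the control, and its changes of 0.82 and 1.16 placed its mean at percentile 97.4 of all tested genes. The rise also passed 1.5-fold relative to all tested genes (0.99 and 1.53) and with the GC trend removed (0.60 and 0.78). TFE3, its close relative, was at 20.5, 19.5 and 15.3 TPM, changes of -0.07 and -0.40. In all 3 libraries TFE3 was the more abundant of the pair, and the gap between them was smaller under both hairpins. Of the other members of the family, MITF was at 3.23, 1.90 and 1.61 TPM and TFEC was listed at 0 in every library.
MYC was at 238, 209 and 173 TPM, changes of -0.19 and -0.46 that lie close to the medians of all tested genes.

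Lysosomal membrane proteins were lower or higher under both hairpins in about the shares of all tested genes. Of the 7, 4 were lower (57.1%) and 2 higher (28.6%), against 57.2% and 24.5%. Their median change was -0.27 with the first hairpin and -0.63 with the second (-0.10 and -0.26 relative to all tested genes). CD63, a tetraspanin of late endosomes and lysosomes, was the most abundant of the 49 genes, at 777 TPM in shCON, at 1072 under shUSP16#1 and at 935 under shUSP16#2. Its changes were 0.47 and 0.27, and relative to all tested genes it passed 1.5-fold under both hairpins (0.64 and 0.64). With the GC trend removed its changes were 0.29 and -0.014. NPC1, which exports cholesterol from the lysosome, fell from 27.0 TPM to 15.0 and 17.1 TPM, changes of -0.81 and -0.63. It is the one member that remained 1.5-fold lower under both hairpins with the GC trend removed (-0.85 and -0.66), but relative to all tested genes its changes were -0.64 and -0.26.

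SCARB2, the receptor that carries β-glucocerebrosidase to lysosomes, was at 25.6, 20.3 and 11.3 TPM, so the change under shUSP16#2 (-1.11) was much larger than under shUSP16#1 (-0.32). The main glycoproteins of the lysosomal membrane are LAMP1 and LAMP2. LAMP1 was at 232 TPM in shCON, at 192 under shUSP16#1 and at 147 under shUSP16#2, lower under both hairpins by 0.27 and 0.66 on the log2 scale. LAMP2 was at 50.02, 51.6 and 30.1 TPM and so was lower only in the shUSP16#2 library. MCOLN1, the calcium channel TRPML1, was at 27.5, 31.8 and 28.1 TPM. CTNS, the cystine exporter, was at 13.2, 10.5 and 8.95 TPM.
The summed level of the 7 genes was 1152, 1394 and 1177 TPM, higher under both hairpins, but without CD63 it was 375, 322 and 242 TPM, lower under both.

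Proteases were the most abundant hydrolases, with a summed level of 1435 TPM in shCON, against 1057 under shUSP16#1 and 1142 under shUSP16#2. CTSC (dipeptidyl peptidase 1), which activates serine proteases of granules, accounted for most of that difference. It fell from 584 TPM to 248 and 296 TPM, changes of -1.23 and -0.98, the largest fall of any hydrolase here under both hairpins. Its transcript has the lowest GC content of the hydrolases (38.2%), and with the GC trend removed its changes were -0.77 and -0.29. Relative to all tested genes these were -0.59 and 0.09. Without CTSC, the 21 other hydrolases summed to 1331, 1223 and 1220 TPM.

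CTSB and CTSL are cysteine proteases of broad specificity. CTSB was at 149 TPM in shCON, at 67.1 under shUSP16#1 and at 117 under shUSP16#2, so its change of -1.14 under the first hairpin was not matched under the second (-0.34). CTSL was at 41.1, 29.01 and 35.2 TPM, lower under both. CTSD, the main aspartic protease of lysosomes, was higher under both, at 217, 266 and 273 TPM. Its changes of 0.29 and 0.33 did not reach 1.5-fold and were 0.46 and 0.70 relative to all tested genes. Its transcript is rich in G and C (64.0%), and with the GC trend removed its changes were -0.14 and -0.27. All tested genes then had medians of -0.18 and -0.37, and relative to these CTSD was at 0.04 and 0.10. The remaining proteases lay closer to shCON. CTSA, which also protects β-galactosidase and neuraminidase, was at 114, 123 and 106 TPM. CTSZ, a carboxypeptidase, was at 264, 261 and 243 TPM. CTSH, an aminopeptidase, was at 41.2, 39.0 and 49.8 TPM, and TPP1, a tripeptidyl peptidase, was at 23.9, 24.7 and 21.5 TPM.

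Glycosidases trim sugars from glycoproteins, glycolipids and glycogen. Under both hairpins 3 of 7 tested were lower (42.9%) and 1 higher (14.3%), against 57.2% and 24.5% of all tested genes. None passed 1.5-fold under both, where 20.8% of all tested genes were lower and 4.05% higher. GLA, the α-galactosidase deficient in Fabry disease, was at 57.6 TPM in shCON, at 40.4 under shUSP16#1 and at 31.3 under shUSP16#2, changes of -0.50 and -0.86. GUSB, β-glucuronidase, was at 59.7, 45.0 and 50.6 TPM. GAA, which degrades glycogen, differed most between the hairpin libraries in the upward direction, at 42.6, 37.9 and 61.9 TPM, changes of -0.17 and 0.53. GLB1, β-galactosidase, was at 32.4, 33.6 and 21.1 TPM, and MANBA, β-mannosidase, was at 4.48, 4.35 and 2.54 TPM. Both were near shCON under shUSP16#1 and lower under shUSP16#2. NEU1, a sialidase, was at 19.8, 21.3 and 17.5 TPM, and NAGLU, which degrades heparan sulfate, was at 6.94, 7.33 and 7.03 TPM.

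HEXA, the α subunit of β-hexosaminidase, did not reach the minimum. It was at 0.03 TPM in shCON and 0.04 TPM under shUSP16#1 and was listed at 0 under shUSP16#2. The cause of the near absence of HEXA from the table was not tested, and an entry near 0 in TPM can be a failed estimate.

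The sulfatases IDS and SGSH, both needed to degrade heparan sulfate, went in opposite directions under both hairpins. IDS was at 38.7 TPM in shCON, at 41.0 under shUSP16#1 and at 25.6 under shUSP16#2. SGSH was at 15.3, 12.5 and 19.7 TPM. Neither passed 1.5-fold in any direction. Among the lipid and thioester enzymes, PPT1, which removes palmitate from proteins, was lower under both hairpins by about the same amount, at 109, 77.1 and 75.9 TPM (changes of -0.50 and -0.52). LIPA, the acid lipase that frees cholesterol, was at 39.3, 38.9 and 20.9 TPM, and ASAH1, acid ceramidase, was at 41.7, 41.9 and 25.8 TPM. Both equalled shCON within 0.02 on the log2 scale under shUSP16#1 and were more than 1.5-fold lower under shUSP16#2. SMPD1, acid sphingomyelinase, was at 12.8, 12.6 and 13.2 TPM.

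Soluble lumenal proteins without enzyme activity were among the most abundant genes, and the pair that was higher under both hairpins was PSAP and GRN. PSAP, the precursor of the saposins that present lipids to hydrolases, was at 267 TPM in shCON, at 347 under shUSP16#1 and at 352 under shUSP16#2. GRN, progranulin, was at 286, 338 and 325 TPM. Their changes (0.37 and 0.40, 0.24 and 0.18) did not reach 1.5-fold. With the GC trend removed the mean change of both hairpins stayed positive for PSAP (0.16) and was -0.26 for GRN. Relative to all tested genes these means were 0.43 for PSAP and 0.02 for GRN. NPC2, which hands cholesterol to NPC1, was at 195, 237 and 142 TPM, higher under one hairpin and lower under the other.

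**Figure D2:**
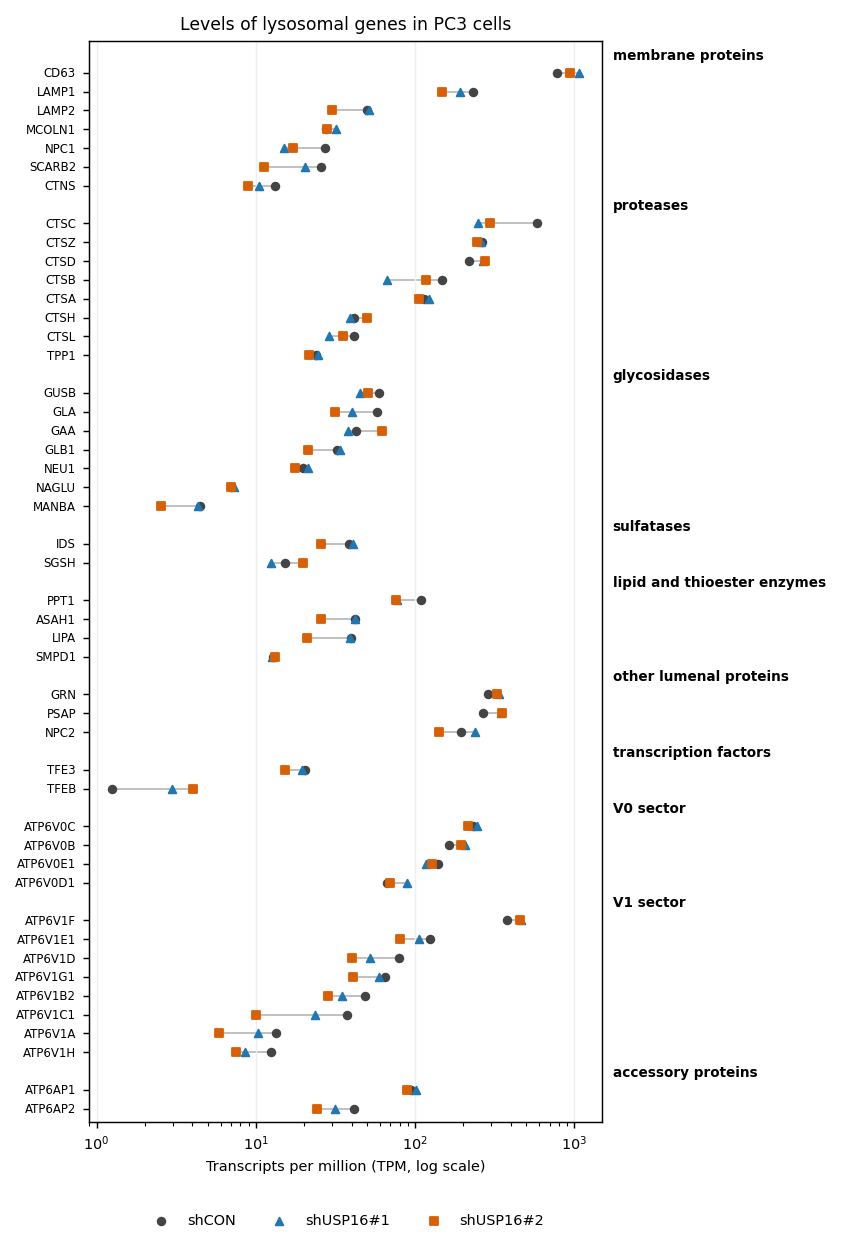
Level of each of the 47 tested genes in TPM (log axis), grouped by role, with 1 point for each library (circle, shCON; triangle, shUSP16#1; square, shUSP16#2) and a grey line from the lowest to the highest. Levels in shCON ran from 1.25 TPM for TFEB to 777 TPM for CD63.

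Among the listed V-ATPase genes, those of the V1 sector were mostly lower, while those of the V0 sector shared no direction. Of the 8 genes of the V1 sector, 7 were lower under both hairpins and ATP6V1F was higher under both. Of the 4 tested genes of the V0 sector, ATP6V0E1 was lower under both and ATP6V0B and ATP6V0D1 were higher under both. Among all tested genes 57.2% were lower and 24.5% higher under both. The median change was -0.40 and -0.71 in V1 and 0.20 and -0.02 in V0, or -0.23 and -0.34 against 0.37 and 0.34 relative to all tested genes. The difference between the medians of the mean change was -0.71 (V1 minus V0). The V1 genes also had a lower GC content, with a median of 45.4% against 55.5%, and with the GC trend removed that difference was -0.35. The V1 medians were then -0.14 and -0.48 and the V0 medians 0.09 and -0.11. Over all tested genes they were -0.18 and -0.37. Of the 8 V1 genes 5 were then lower and 1 higher under both hairpins, and of the 4 V0 genes 1 and 1. Of 13320 tested genes, 8219 were then lower under both and 2259 higher. The number of genes in each sector is small, and the comparison of sectors was chosen after the values were seen. Genes for alternative subunits, a list apart from the members, also went in both directions. Of 4 tested, the V1 genes ATP6V1E2 (changes of 0.22 and 0.34) and ATP6V1G2 (0.79 and 0.078) and the V0 gene ATP6V0E2 (0.51 and 0.096) were higher under both hairpins, and the V0 gene ATP6V0A2 was lower under both (-0.69 and -0.55). ATP6V1E2 was at 5.63, 6.73 and 7.37 TPM, and ATP6V1G2 at 0.61, 1.79 and 0.70 TPM, close to the minimum.

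In the catalytic part of V1, subunits A and B bind and hydrolyse ATP. ATP6V1A was at 13.3 TPM in shCON, at 10.4 under shUSP16#1 and at 5.89 under shUSP16#2, changes of -0.33 and -1.05. ATP6V1B2 was at 48.6, 34.9 and 28.5 TPM, changes of -0.47 and -0.75. The central stalk is built from subunits D and F. ATP6V1D fell from 79.1 TPM to 52.2 and 40.4 TPM, changes of -0.59 and -0.95, while ATP6V1F was at 378, 462 and 454 TPM, changes of 0.29 and 0.27. These subunits of 1 stalk thus lay on either side of shCON in both hairpin libraries.

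Subunits C, E, G and H form the peripheral stalks and the regulatory parts that hold V1 on V0. ATP6V1C1, which is released when the pump comes apart, fell most of the 47 genes under shUSP16#2, from 37.1 TPM to 23.6 TPM under shUSP16#1 and 10.03 TPM under shUSP16#2, changes of -0.63 and -1.79. With the GC trend removed they were -0.14 and -1.11, so under shUSP16#1 most of the difference is shared by other transcripts of its GC content (39.7%). ATP6V1E1 was at 125, 106 and 80.7 TPM, ATP6V1G1 at 64.8, 59.2 and 40.7 TPM, and ATP6V1H at 12.5, 8.56 and 7.51 TPM. All of these were lower under both hairpins and none of the last trio passed 1.5-fold under both.

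The 4 tested V0 members lay within 1.5-fold of their control levels under both hairpins. ATP6V0C, which encodes the proton-carrying ring, was at 232 TPM in shCON, at 245 under shUSP16#1 and at 214 under shUSP16#2. ATP6V0B, another ring subunit, was at 164, 206 and 195 TPM, and ATP6V0D1, which joins the ring to the stalk, was at 66.5, 89.0 and 69.7 TPM. ATP6V0E1 was at 139, 118 and 128 TPM. Summed over each sector, V0 held 601, 658 and 606 TPM and V1 held 758, 756 and 668 TPM, but ATP6V1F made up much of the V1 sum, which without it was 380, 295 and 214 TPM.

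The a subunit of V0 has 4 genes, and the one listed among the members, ATP6V0A1, did not reach the minimum, at 0.33, 0.35 and 0.19 TPM. TCIRG1, the a3 gene known from osteoclasts, was at 41.1 TPM in shCON, at 45.8 under shUSP16#1 and at 52.4 under shUSP16#2 and was named after its values were seen. It held 80.9%, 88.8% and 89.5% of the summed level of these genes in the 3 libraries. ATP6V0A2 was at 8.84, 5.11 and 5.72 TPM and ATP6V0A4 did not exceed 0.55 TPM. The accessory proteins ATP6AP1 and ATP6AP2 help assemble the pump. ATP6AP1 was at 94.7, 102 and 89.0 TPM, and ATP6AP2, the prorenin receptor, was at 41.5, 31.3 and 24.1 TPM and so was lower under both hairpins.

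**Figure D3:**
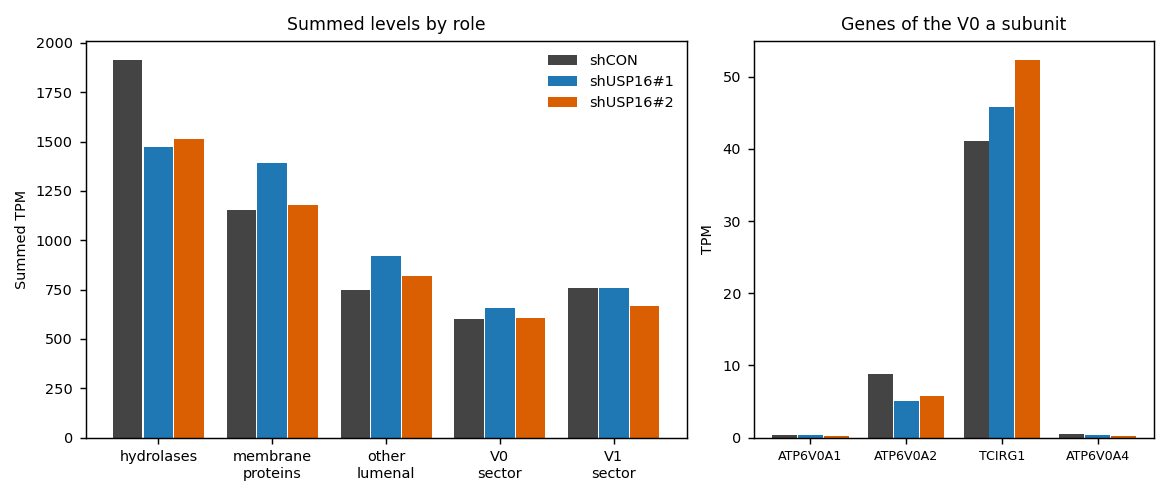
Left, summed TPM of the genes of each role in shCON, shUSP16#1 and shUSP16#2 (bars, 1 library each, no error bars). Right, TPM of the genes for the a subunit of V0. The hydrolase sum was lower under both hairpins (1915 against 1470 and 1515 TPM), and TCIRG1 was the most abundant a subunit gene in every library.

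Between the main classes, hydrolases had a median change of -0.02 and -0.22, membrane proteins of -0.27 and -0.63 and V-ATPase genes of -0.24 and -0.64 under shUSP16#1 and shUSP16#2. Centred on the table's medians these became 0.15 and 0.15 for hydrolases, -0.10 and -0.26 for membrane proteins and -0.06 and -0.27 for V-ATPase genes. On the mean of both hairpins the hydrolase median was 0.16 above that of the V-ATPase, but with the GC trend removed the order turned, to -0.076. Of the 21 tested hydrolases 9 (42.9%) were lower and 2 (9.52%) higher under both hairpins. For the V-ATPase these counts were 9 (64.3%) and 3 (21.4%) of 14, and over all tested genes the shares were 57.2% and 24.5%.

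Changes among these genes followed the GC content of their transcripts, as they did across the table. The rank correlation with GC content was 0.43 under shUSP16#1 and 0.79 under shUSP16#2 over the 47 genes, and 0.54 and 0.64 over 13320 tested genes, where genes share libraries and are not independent. Of the 19 tested members with a GC content under 50%, 15 were lower and 0 higher under both hairpins. Of the 28 at or above 50%, 8 were lower under both and 10 were higher. The median changes were -0.32 and -0.71 in the first group and 0.06 and -0.04 in the second. All tested genes divided the same way had medians of -0.45 and -0.77, and 0.08 and 0. The medians of the members under 50% were thus no lower than those of all tested genes under 50%. Counts by direction were not taken for all tested genes in each range, so the member counts have no share beside them. They are therefore not read as particular to the members. In each bin of all tested genes up to a median GC content of 45.4%, the upper quartile was below 0 under both hairpins. With 1 library per condition, an effect of the hairpins on transcripts poor in G and C and a difference in library preparation cannot be told apart.

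**Figure D4:**
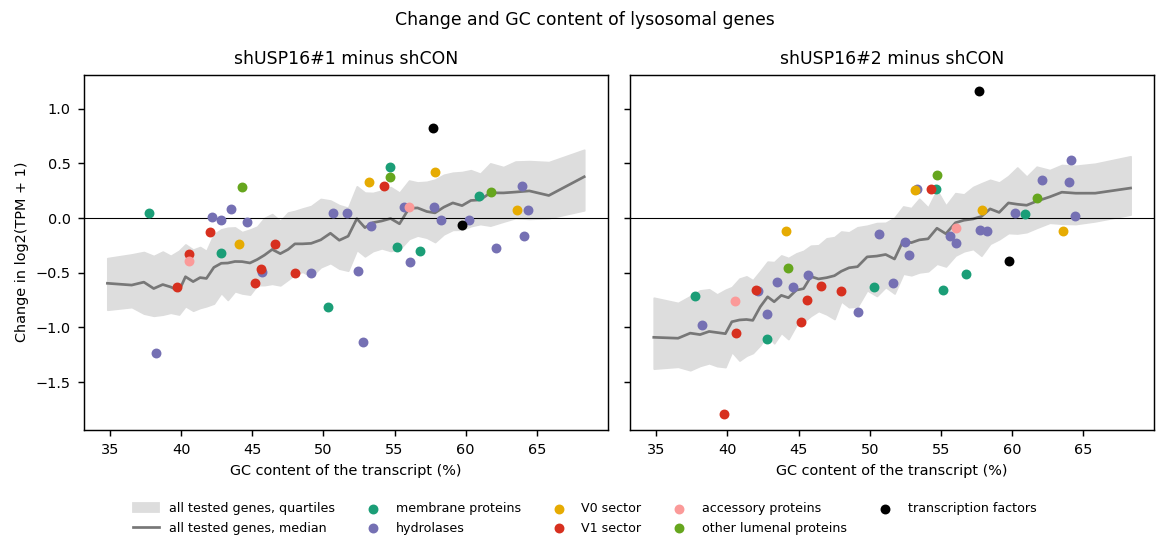
Change in log2(TPM + 1) against GC content of the transcript for the 47 tested genes (points, coloured by role) under shUSP16#1 and shUSP16#2. The grey line and band are the median and quartiles of all tested genes in 50 bins of GC content, and most members lie in or near the band, while TFEB lies above it under both hairpins.

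Other genes of the lysosome were read from lists of textbook members, drawn up with earlier results of these data known. Of 59 tested genes of lysosomal degradation, sorting, nutrient sensing and autophagy, 30 were lower and 19 higher under both hairpins, 8 fell at least 1.5-fold under both and 0 rose. These are 50.8%, 32.2%, 13.6% and 0% of the 59, where all tested genes gave 57.2%, 24.5%, 20.8% and 4.05%. The median changes were -0.12 and -0.25. Among 18 other enzymes and lumenal proteins the medians were -0.48 and -0.36, and CTSO, a cysteine protease, fell from 3.08 TPM to 1.48 and 1.35 TPM. By the smaller of both changes ARSA, arylsulfatase A, was highest relative to shCON, at 4.71, 5.69 and 6.13 TPM.

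Among 14 other membrane proteins the medians were -0.14 and -0.44. SLC38A9, the arginine sensor that signals to mTORC1 from the lysosome, fell from 19.7 TPM to 7.76 and 6.07 TPM, changes of -1.24 and -1.55, the one gene of all these lists that was 2-fold lower under both hairpins. TMEM192 and MFSD8 also fell. CLN3, a membrane protein mutated in Batten disease, was at 17.8, 22.8 and 26.4 TPM.

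Hydrolases reach the lysosome through a mannose 6-phosphate tag. GNPTAB, which encodes the catalytic subunits of the enzyme that starts the tag, fell from 6.59 TPM to 3.90 and 1.81 TPM, while its γ subunit GNPTG was at 23.0, 27.0 and 31.3 TPM. The Ragulator complex and Rag GTPases anchor mTORC1 to the lysosome, where it holds TFEB in the cytosol. Of 10 tested genes in that list, 4 were lower (40%) and 4 higher (40%) under both hairpins. Over all tested genes these shares were 57.2% and 24.5%. RRAGC fell from 9.78 TPM to 5.55 and 4.82 TPM, and LAMTOR4 was at 135, 198 and 197 TPM. Of 8 tested autophagy genes, 2 (25%) were lower and 3 (37.5%) higher under both. Those higher included GABARAP at 111, 189 and 155 TPM and the cargo receptor SQSTM1 at 223, 267 and 297 TPM. By the smaller of both changes UVRAG was lowest relative to shCON, at 5.43, 4.13 and 2.59 TPM.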

How the data were processed

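Libraries were made from total RNA and sequenced by a service company (Majorbio), whose online platform gave the expression values. The table that the authors deposited gives TPM to 2 decimals in 1 column per library, beside gene annotation and 3 columns that repeat the others and were not used. The table also lists a length for each gene, which was not used. The submitters' processing notes name CASAVA, HISAT2 and hg19. The quantification tool is not given in the sources used here, and of the identifiers 58457 matched GENCODE release 29 (GRCh38). Samples were grouped by their titles.

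The 49 members and all gene lists were chosen with earlier results of these data known. Roles were assigned from textbook knowledge. Named genes were, in each role, the 2 that rose most and the 2 that fell most by the smaller of both changes, with the remaining members given by value. Outside the members, USP16, MYC and the extremes of each list were named, and SQSTM1, MITF, TCIRG1, TMEM192, MFSD8, CTSO, ATP6V0A4, ATP6V0E2 and ATP6V1G2 beyond them. Every entry of the table was kept by its identifier. The minimum for testing was an average of 1 TPM, and the pseudocount was 1. GC content was that of the longest protein-coding transcript in GENCODE release 29 (97.5% of tested genes), and the trend was removed by binning genes by GC content (50 bins), subtracting the median of each bin and restoring the overall median. Promoters were RefSeq windows (GRCh38.p14), matched by symbol. The alternatives were another pseudocount (0.1), centring, rescaling to protein-coding genes, dropping the minimum or raising it to 5 TPM, using 1 hairpin at a time, removing the GC trend and a 2-fold threshold. Procedures were tested on simulated data. Software was pandas 2.3.3, numpy 2.4.6 and scipy 1.17.1 under Python 3.11.15, with figures from matplotlib 3.10.9. Some genes of these lists are not reported here.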

Additional observations from a re-analysis of the deposited data

How the results depend on the processing

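No paired analysis was possible because no group held more than 1 library. The spread used to judge movement was the SD of the values of the 2 hairpins, which are not replicates. Centring on all tested genes turned the median change of the hydrolases from -0.25 to 0.019 and moved that of the membrane proteins from -0.41 to -0.14. Under shUSP16#1 alone the hydrolase median was -0.019. The difference between the medians of hydrolases and V-ATPase genes moved from 0.16 to 0.43 under shUSP16#2 alone and turned to -0.076 with the GC trend removed. The V-ATPase median of -0.41 ran from -0.64 to -0.14 over all alternatives. The difference between V1 and V0, a result added after seeing the data, moved from -0.71 to -0.58 with no minimum, -0.60 under shUSP16#1 alone and -0.35 with the GC trend removed, and kept its sign in all 8 alternatives. The 4 members that fell became 1 when centred (CTSC), 1 with the GC trend removed (NPC1), 0 with both, which was chosen after seeing the data, 0 at 2-fold and 18 under shUSP16#2 alone. Rescaling left 3, without NPC1. The 1 member that rose, TFEB, became 2 when centred, with CD63, and was 0 at 2-fold and with a minimum of 5 TPM, which TFEB does not reach. Over all tested genes, 2842 fell and 554 rose, against 1527 and 1334 when centred, 1642 and 319 with the GC trend removed and 584 and 853 with both. The change of sign among the 47 members was most frequent with the GC trend removed (16 genes), under shUSP16#1 alone (13) and when centred (9).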

Other observations

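Across the whole table, genes with CACGTG in a promoter window did not stand higher than genes without it. The 1218 tested genes with a match had median changes of -0.24 with shUSP16#1 and -0.42 with shUSP16#2, while the 8311 with a window and no match had -0.20 and -0.41. With the GC trend removed the medians were -0.24 and -0.43 against -0.18 and -0.38. The 90 tested genes with the CLEAR element had medians of -0.19 and -0.37, and 63.3% of them were lower under both hairpins, against 63.4% of the genes with CACGTG. With the GC trend removed the medians of the CLEAR genes were -0.31 and -0.51, with 71.1% lower under both, against 70.9% of the genes with CACGTG and 64.1% of those without. The lysosomal genes with a match are a small part of these genes, and their medians of 0.15 and 0.05 were above those of either group.
GALC, which encodes galactosylceramidase, was listed at 0 in all 3 libraries, and CTSK was at 0.48, 0.58 and 0.14 TPM.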
